A study of Sus scrofa with 10 samples.

Results

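Of the 12354 mRNAs measured in whole blood of growing pigs, 5 rose at both steps of the suckling period and were highest at its end. These mRNAs are ENSSSCG00000003302, ENSSSCG00000031037, ENSSSCG00000032163, ENSSSCG00000036983 and ENSSSCG00000039102. They were chosen by their measured values: each gained at least 1.5 in mean log2(FPKM + 1) from birth to 7 days and again from 7 to 28 days, and had its highest mean FPKM of the 5 ages at 28 days. FPKM is a fragment count scaled to transcript length and to the mapped reads of the library, so that levels can be compared between mRNAs of different length. No symbol was paired with any of the 5 identifiers in the reference tables used here, whereas 9735 identifiers of the mRNA table had one, so the genes are called by their identifiers and no function is given for them.

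The blood came from 10 healthy female Qingyu pigs, 2 at each of 5 ages, and 1 library was made per pig. The ages were D0 (just after birth), D7 (7 days), D28 (28 days), D180 (180 days) and Y2 (2 years). The pigs received no treatment, and the groups differ in age alone as far as the labels say. Each library holds RNA of unsorted whole blood after removal of ribosomal RNA, and each pig was sampled at 1 age only, so a course over age joins different animals.

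Red cells, platelets and several kinds of white cells share the RNA of whole blood, and transcripts of haemoglobin from young red cells take a large part of it. A piglet is born with few experienced lymphocytes and depends on its mother's milk for antibodies, while its own T, B and natural killer (NK) cells multiply and mature over the first weeks. Red cell production also changes after birth, as red cells made before birth are replaced. In such bulk samples, more cells of a type and more RNA per cell cannot be told apart.

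The labelled tissue was checked against its defining markers. HBB, the beta chain of haemoglobin, was the leading erythroid marker, with a mean of 472064 FPKM at D0 and 122445 FPKM at D180. The 10 highest mRNAs took 68.1% to 90.7% of the summed FPKM of a library, with the lowest shares in the 2 libraries of D180. The number of mRNAs above 0.5 FPKM was 7783 to 11887 per library, and the median mRNA was at 0.831 to 5.64 FPKM, lowest at D0 and highest at D180. Since the level of the typical mRNA in FPKM changed with age, each step is given below also under 2 other scalings of the libraries. Reads behind single values are not known from FPKM, and with 2 pigs per age the number of animals limits the precision of every mean.

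ENSSSCG00000003302 was at 3.69 and 2.73 FPKM in the 2 D0 pigs, 11.9 and 11.1 at D7, 48.4 and 37.4 at D28, 5.97 and 5.50 at D180, and 9.94 and 6.93 at Y2. Both D28 libraries stood above all other libraries, and the 2 D180 libraries fell below those of D7. Its mean at D28 was 42.9 ± 7.76 FPKM (SD, n = 2), which was 13.4-fold the mean at D0 and 7.47-fold the mean at D180. Among the 5 mRNAs it was the only one whose mean was higher at Y2 (8.43 ± 2.13 FPKM, SD, n = 2) than at D180 (5.74 ± 0.331 FPKM).

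ENSSSCG00000031037 was the most abundant of the 5 mRNAs from D7 onward. Its levels were 2.81 and 3.47 FPKM at D0, 16.0 and 19.2 at D7, 70.9 and 82.9 at D28, 72.9 and 62.2 at D180, and 27.3 and 24.8 at Y2. The libraries of D28 and D180 overlapped, since pig 1 of D180 lay above pig 1 of D28. The mean at D28 was 76.9 ± 8.48 FPKM (SD, n = 2), 24.5-fold that at D0 but only 1.14-fold that at D180, and the difference between these means was smaller than the gap between the 2 pigs of either age.

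ENSSSCG00000032163 was at 0.224 and 0.516 FPKM at D0, 3.29 and 3.09 at D7, 10.3 and 12.7 at D28, 1.42 and 0.508 at D180, and 0.112 and 0.131 at Y2. The D28 libraries were the highest and the Y2 libraries the lowest of all 10. The mean of D28, 11.5 ± 1.67 FPKM (SD, n = 2), was 95.1-fold the mean of Y2, which was the largest fold of the 5 mRNAs between D28 and Y2. The D180 pigs differed from each other more than those of other ages in relative terms, and pig 2 of D180 was within the range of D0.

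ENSSSCG00000036983 was low at every age but D7 and D28. It was at 0.113 and 0.0863 FPKM at D0, 2.62 and 2.86 at D7, 11.2 and 11.0 at D28, 0.480 and 0.459 at D180, and 0.358 and 0.537 at Y2. The 2 pigs of D28 were closest together here, with a mean of 11.1 ± 0.136 FPKM (SD, n = 2) at D28. That mean was 111-fold the mean at D0, the largest fold of the 5 over D0, and 23.7-fold the mean at D180. The D180 and Y2 libraries interleaved.

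ENSSSCG00000039102 was at 0.375 and 0.257 FPKM at D0, 3.27 and 4.26 at D7, 16.4 and 13.5 at D28, 10.6 and 12 at D180, and 5.44 and 5.88 at Y2. Both D28 libraries lay above all others, although the lower of them, 13.5 FPKM, was close to the higher of the D180 libraries, 12 FPKM. The D28 mean of 15.0 ± 2.07 FPKM (SD, n = 2) was 47.3-fold the mean at D0 and 1.33-fold the mean at D180.

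**Figure D1:**
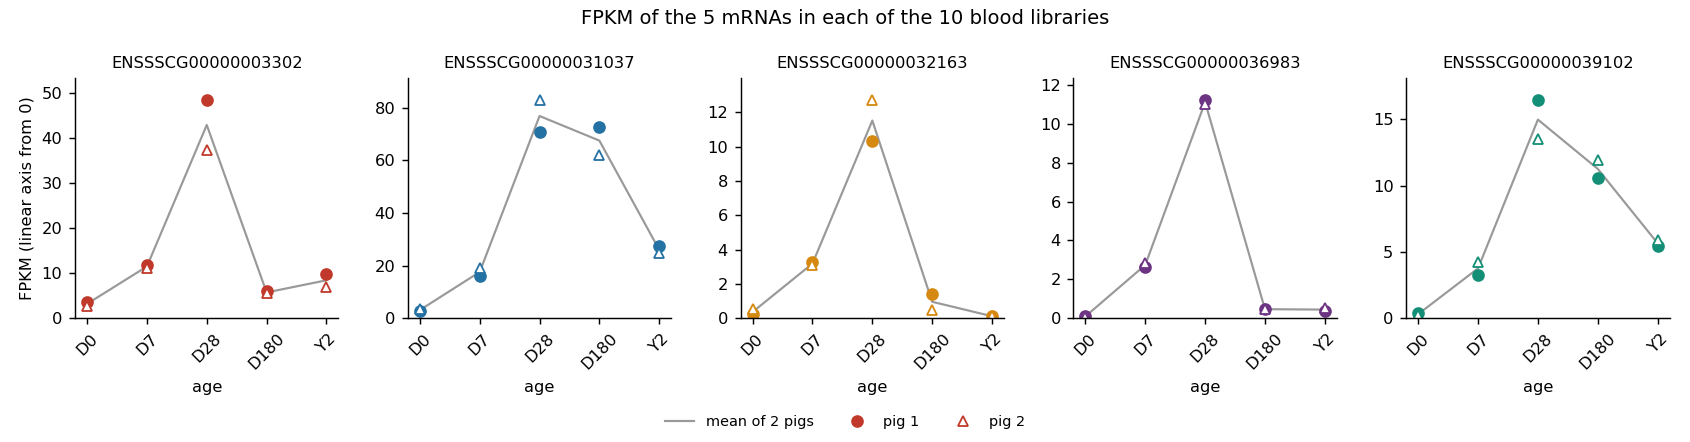
FPKM (linear axis from 0, a scale of its own in each panel) of the 5 mRNAs against age. Filled circles are pig 1 and open triangles pig 2 of each age, which are different animals at each age, and the grey line joins the means of 2 pigs. All 5 means are highest at D28, 3 of them drop to low levels at D180, and ENSSSCG00000031037 and ENSSSCG00000039102 keep 87.8% and 75.2% of their D28 mean.

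The order of the levels at D28 was ENSSSCG00000031037, ENSSSCG00000003302, ENSSSCG00000039102, ENSSSCG00000032163 and ENSSSCG00000036983. Neither the first and the next, nor ENSSSCG00000003302 and ENSSSCG00000039102, overlapped in their libraries, nor did ENSSSCG00000039102 and ENSSSCG00000032163, while the last 2 did, at 10.3 to 12.7 and 11.0 to 11.2 FPKM. At D0 the order was different: ENSSSCG00000003302 and ENSSSCG00000031037 overlapped at about 3 FPKM, and the other 3 were all near or below 0.5 FPKM.

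Both D7 libraries lay above both D0 libraries for all 5 mRNAs, against 44.2% of all mRNAs, and both D28 libraries lay above both D7 libraries for all 5, against 77.2% of all mRNAs. Both D28 libraries lay above the other 8 for 4 of the 5, against 1.72% of all mRNAs, the exception being ENSSSCG00000031037. Nothing is read from these counts, since the choice of the mRNAs used the same values. At D28 neither animal was high throughout: pig 1 was the higher in 3 of the 5 mRNAs and pig 2 in the other 2.

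In log2(FPKM + 1), where a change of a low mRNA comes out too small, the step from D0 to D7 was between 1.58 (ENSSSCG00000003302, SE 0.178) and 2.17 (ENSSSCG00000031037, SE 0.131). From D7 to D28 the steps were between 1.57 (ENSSSCG00000032163) and 2.07 (ENSSSCG00000031037). On the linear scale the mean grew 3.61-fold to 4.37-fold from D7 to D28 in all 5, but the growth from D0 to D7 was far less alike, from 3.59-fold in ENSSSCG00000003302 to 27.5-fold in ENSSSCG00000036983. The smaller step of ENSSSCG00000032163, 1.57, and that of ENSSSCG00000003302, 1.58, were the nearest to the limit of 1.5 from inside.

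Just outside the limits were 3 mRNAs that also had their highest mean at D28. ENSSSCG00000038204 gained 1.36 and then 2.22, and its means were 0, 1.57, 11.0, 10.2 and 2.68 FPKM from D0 to Y2. ENSSSCG00000037548 gained 1.35 and 1.32, with means of 0.208, 2.08, 6.68, 3.74 and 1.22 FPKM. GBP1, an interferon-inducible GTPase (ENSSSCG00000024973), gained 0.94 and then 2.92, with means of 3.26, 7.15, 60.8, 52.8 and 26.3 FPKM. By their means all 3 kept most or a good part of their D28 level at D180, as ENSSSCG00000031037 and ENSSSCG00000039102 did. The D180 libraries of ENSSSCG00000038204, at 15.1 and 5.31 FPKM, lay on either side of its D28 libraries, at 10.7 and 11.3 FPKM. Its peak at D28 is therefore uncertain.

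**Figure D2:**
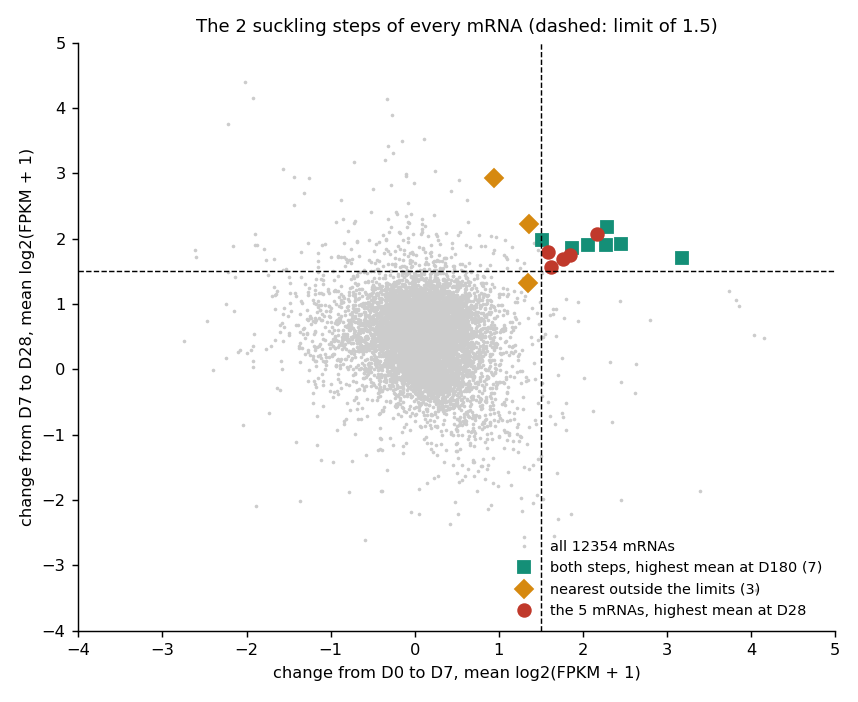
Change of mean log2(FPKM + 1) from D0 to D7 (horizontal) against that from D7 to D28 (vertical) for each mRNA, with dashed lines at the limit of 1.5. Of 12354 mRNAs (grey), 12 lie past both limits: the 5 with the highest mean at D28 (red circles) and 7 with the highest mean at D180 (green squares), while orange diamonds mark the 3 nearest outside, and 2 mRNAs with changes beyond the axes are not drawn.

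Passing both steps was rarer than a peak at D28. In all, 12 mRNAs made both steps, and the other 7 had their highest mean at D180, also without a symbol. Those 7 stood at 12.4 to 89.6 FPKM at D28, a range that covers 3 of the 5 mRNAs and begins just above the other 2, and then rose further to 94.4 to 310.3 FPKM at D180, 3.13 to 8.46 times their D28 mean. A highest mean at D28 was found for 321 mRNAs, 2.6% of the table, of which 229 had a symbol.

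After D28 the 5 mRNAs followed 2 courses. ENSSSCG00000003302, ENSSSCG00000032163 and ENSSSCG00000036983 had 13.4%, 8.36% and 4.23% of their D28 mean left at D180, a change of -2.69, -2.71 and -3.04 on the log2(FPKM + 1) scale. ENSSSCG00000031037 and ENSSSCG00000039102 had 87.8% and 75.2% left at D180 and 33.9% and 37.8% at Y2, with log2 changes from D28 to D180 of -0.18 and -0.38. Both D180 libraries lay below both D28 libraries for 4 of the 5, against 3.89% of all mRNAs. This is a description, since the rule required a lower mean at D180, and the division into 2 courses was made after the values were seen.

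The rank of an mRNA within its library does not depend on how libraries are scaled. ENSSSCG00000003302 ranked 2008 and 2809 from the top of 12354 mRNAs at D0, 328 and 399 at D28, and 5787 and 6276 at D180. ENSSSCG00000031037 ranked 2602 and 2242 at D0, 242 and 226 at D28, and 418 and 505 at D180. Thus both mRNAs were near the top of the libraries at D28, and only ENSSSCG00000031037 was still near there at D180.

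The 3 lower mRNAs also had their best ranks at D28. ENSSSCG00000036983 went from 10838 and 11182 at D0 to 1250 and 1296 at D28 and 11859 and 11937 at D180. ENSSSCG00000032163 went from 9785 and 7814 to 1364 and 1104 and then 10096 and 11867. ENSSSCG00000039102 was at 8567 and 9581 at D0, 842 and 1041 at D28, and 3665 and 3425 at D180. Its rank at D180 was well below that at D28 although its FPKM was similar, because most other mRNAs had higher FPKM at D180.

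**Figure D3:**
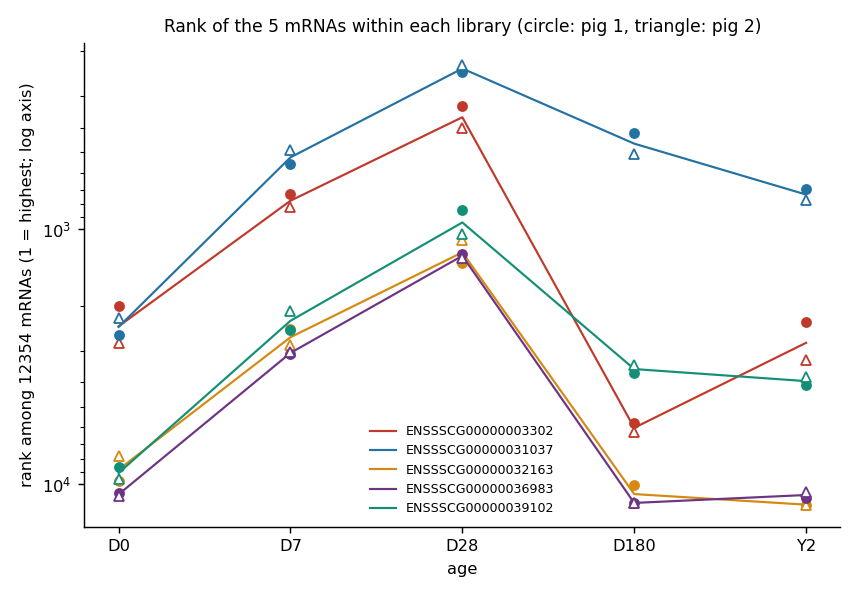
Rank of the 5 mRNAs among 12354 mRNAs of the same library (log axis, 1 is the highest FPKM) against age, with circles for pig 1, triangles for pig 2 and lines through the mean ranks. Every one of the 5 has its best ranks at D28, and at D180 ENSSSCG00000031037 is at 418 and 505 while ENSSSCG00000036983 is at 11859 and 11937.

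How the 5 mRNAs moved against each other was described over the 10 libraries, in which the 2 pigs of an age share that age. ENSSSCG00000031037 and ENSSSCG00000039102 had a Pearson r of 0.990 for log2(FPKM + 1). ENSSSCG00000036983 had an r of 0.968 with ENSSSCG00000032163 and of 0.955 with ENSSSCG00000003302, and the last 2 had an r of 0.881 with each other. Across the 2 courses r was 0.517 to 0.692, and 0.663 to 0.858 after median-of-ratios scaling. The rise was in the pairs with ENSSSCG00000032163 and ENSSSCG00000036983. ENSSSCG00000003302 hardly moved, from 0.649 to 0.663 with ENSSSCG00000031037 and from 0.692 to 0.677 with ENSSSCG00000039102.

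The ratio of ENSSSCG00000031037 to ENSSSCG00000039102 was 7.48 and 13.5 at D0, where the second was lowest, and between 4.21 and 6.90 in the other 8 libraries. The 2 pigs of D28, at 4.32 and 6.14, spanned much of that range. The ratio of ENSSSCG00000032163 to ENSSSCG00000036983 was between 0.921 and 1.25 in the 4 libraries of D7 and D28, but 1.98 and 5.98 at D0, 2.95 and 1.11 at D180, and 0.311 and 0.243 at Y2. Equal levels of that pair were thus found at D7 and D28, and both were low where their ratio varied.

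The level of the libraries as a whole also changed with age, and the median change of all mRNAs was 0.06 from D0 to D7, 0.46 from D7 to D28, 1.07 from D28 to D180 and -0.65 from D180 to Y2 (log2). Median-of-ratios scaling, which sets the typical mRNA equal in every library, moved these medians to about 0. Under it the 5 mRNAs gained 1.51 to 2.36 from D0 to D7, 0.82 to 1.18 from D7 to D28, and lost 1.72 to 3.91 from D28 to D180. All 5 still had their highest mean at D28, as 21.6% of all mRNAs then did, but none of the 5 made both steps of 1.5.

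When the 10 highest mRNAs were left out and each library was set to the same sum of the others, the steps from D7 to D28 were 1.24 to 1.65. Only ENSSSCG00000031037 then made both steps, with 2.50 and 1.65, and all 5 had their highest mean at D28, against 6.57% of all mRNAs. The peak at D28 therefore held for the 5 mRNAs under each of the 3 scalings, whereas the size of the step from D7 to D28, and with it the choice of these 5, did not.

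**Figure D4:**
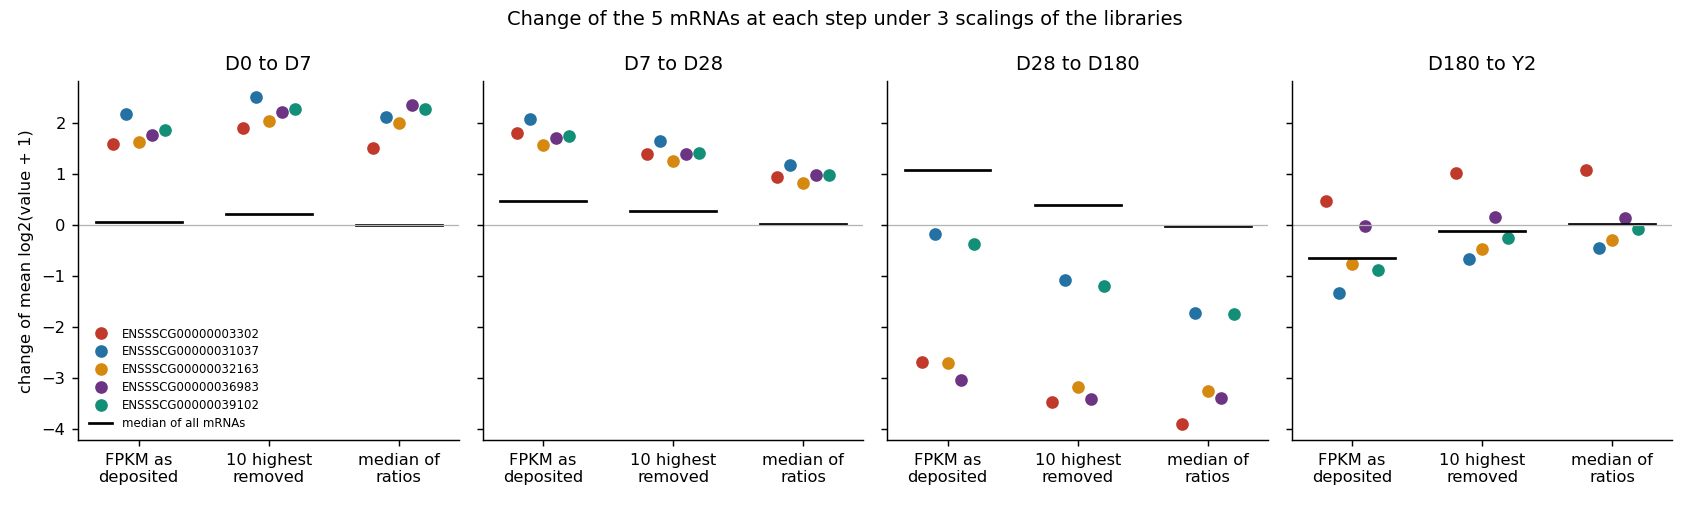
Change of mean log2(value + 1) of the 5 mRNAs at each of 4 steps under 3 scalings of the libraries, with black bars for the median of all mRNAs. From D7 to D28 the 5 points lie at 1.57 to 2.07 in FPKM and at 0.82 to 1.18 after median-of-ratios scaling, and from D28 to D180 all 5 lie below 0 under each scaling.

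The rule used D180 and Y2 only in asking that both be below D28, and the difference between these 2 ages was tested. That request is not neutral for this difference. The median mRNA rose by 1.07 from D28 to D180, so mRNAs with a peak at D28 are selected to be low at D180. This can push their change from D180 to Y2 upward against that of all mRNAs. The shares and the median of all mRNAs below are therefore given for scale only. The test was limma on log2(FPKM + 1) over all 12354 mRNAs and 10 libraries, with Benjamini-Hochberg adjustment. With 2 pigs against 2, an exact permutation test of 1 mRNA could not go below a two-sided p of 0.333, so the p-values rest on the spread that limma shares across mRNAs and ages. Whether pigs of an age were littermates is not given in the sources used here.

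By adjusted p alone 3 of the 5 mRNAs were lower at Y2, against 84.6% of all mRNAs, and 1 was higher, against 2.49%. ENSSSCG00000031037 was lower by 1.34 on the log2 scale (-1.34, SE 0.131, 95% interval -1.64 to -1.04, limma adjusted p = 3.5e-05), with both Y2 libraries below both D180 libraries. ENSSSCG00000039102 changed by -0.88 (SE 0.127, limma adjusted p = 0.00024) and ENSSSCG00000032163 by -0.77 (SE 0.206, limma adjusted p = 0.00713), also without overlap. The latter was -0.43 without pig 1 of D180 and -1.11 without pig 2 of D180. Both Y2 libraries lay below both D180 libraries for these 3, against 89% of all mRNAs. Since nearly all mRNAs were lower at Y2, this share is not a result about these mRNAs.

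ENSSSCG00000003302 was higher at Y2 by 0.47 (SE 0.178, 95% interval 0.06 to 0.88, limma adjusted p = 0.0347), and both Y2 libraries were above both D180 libraries, which held for 3.47% of all mRNAs. Leaving out pig 1 of D180, pig 2 of D180 or pig 1 of Y2 raised that adjusted p to 0.0728, 0.134 and 0.250, and the difference itself was 0.24 to 0.70 without 1 pig. Relative to the median of all mRNAs the difference was 1.12, and under the 2 other scalings it was 1.02 and 1.08. ENSSSCG00000036983 differed by -0.02 (95% interval -0.21 to 0.16, limma adjusted p = 0.779), which was 0.63 above the median change. Nothing is read from the distances of these 2 mRNAs to the median or from the share of 3.47%, since the choice of mRNAs below D28 at D180 bears on them.

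None of the 5 mRNAs passed the adjusted p limit together with a log2 change of at least 1.5, which 1.25% of all mRNAs did downward and 0.105% upward. At an unadjusted p under 0.05 limma gave 4 of the 5, against 87.6% of all mRNAs. After median-of-ratios scaling the 3 mRNAs that had been lower at Y2 no longer passed, at -0.46 for ENSSSCG00000031037 (limma adjusted p = 0.0654), -0.30 for ENSSSCG00000032163 (0.399) and -0.08 for ENSSSCG00000039102 (0.760).

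The mRNAs with the most similar course were found by Pearson's r of log2(FPKM + 1) over the 10 libraries, as a description. For ENSSSCG00000031037 and ENSSSCG00000039102 the closest mRNA with a symbol was UCP2, a carrier of the inner mitochondrial membrane, with r of 0.989 and 0.976. UCP2 was far more abundant and flatter, with means of 84.8, 151.6, 235.0, 265.0 and 178.4 FPKM from D0 to Y2. ENSSSCG00000040986 (r = 0.975 with the first) and ADISSP (r = 0.961 with the second) took the remaining places. The level of ENSSSCG00000040986 was low, with means from 0 FPKM at D0 to 1.80 FPKM at D28.

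For the mRNAs that were low at D180, LGI4, a secreted protein with leucine-rich repeats known from the myelination of nerves, recurred in the lists. Its r was 0.968 with ENSSSCG00000036983 and 0.933 with ENSSSCG00000003302, and its means were 0.408, 1.48, 5.04, 1.06 and 0.661 FPKM. SNX15, a sorting nexin of endosomes, was the closest to ENSSSCG00000032163 with r of 0.978, although its means only went from 2.72 to 5.37 and back to 2.25 FPKM. ENSSSCG00000033813 followed at 0.952, and ENSSSCG00000023603 was the closest to ENSSSCG00000003302 at 0.961.

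The number of mRNAs with an r above 0.95 was 2 for ENSSSCG00000003302, 11 for ENSSSCG00000031037, 3 each for ENSSSCG00000032163 and ENSSSCG00000036983, and 6 for ENSSSCG00000039102. In the same order there were 1, 20, 10, 7 and 13 after median-of-ratios scaling. Under that scaling the closest to ENSSSCG00000031037 and ENSSSCG00000039102 was IRF1, a transcription factor of the interferon response, with r of 0.980 and 0.992. In FPKM before that scaling, IRF1 had means of 6.77, 13.5, 32.4, 68.6 and 34.5, highest at D180. The scaling divides the D28 libraries by 1.00 and 0.971 and the D180 libraries by 2.87 and 3.03. These FPKM means therefore do not show the course of IRF1 on the scale where r was computed. ERAP1, which trims peptides for display on MHC class I, followed for the first at 0.978 and ATF7, a transcription factor, for the second at 0.983.

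Under the same scaling JUP, the junction protein plakoglobin, was the closest to ENSSSCG00000032163 at 0.988, and NXN, the redox protein nucleoredoxin, to ENSSSCG00000036983 at 0.978. NXN was low throughout, with means from 0.144 FPKM at D0 to 0.886 FPKM at D28. LGI4 was among the first 3 for both, at 0.976 and 0.974, and was the first for ENSSSCG00000003302 at 0.956, followed by ADISSP and HYCC1, both at 0.939. Of the 15 places over the 5 mRNAs, 6 went to the same mRNA under both scalings, so these neighbours depended on the scaling.

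The course of the 5 mRNAs was set beside 16 lists of blood cell and immune genes, 172 genes in all. In these lists a gene was called when the limma adjusted p was at most 0.05 and the log2 change at least 1.5 in size. From D0 to D7, 0.453% of all mRNAs were called higher, and from D7 to D28, 2.02%. No list gene was called higher at both steps, and since only 0.0971% of all mRNAs made both steps, nothing is read from that count. The list gene SLA-DQB1, a chain of MHC class II chosen here after its values were seen, came near it with 1.42 from D0 to D7 (limma adjusted p = 5.5e-06) and 1.94 from D7 to D28, and had its highest mean at D180.

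Natural killer and cytotoxic genes rose late in the suckling period. Of 24 identifiers measured, of which 2 carry the symbol GZMA, none was called from D0 to D7 (median -0.07), where 0.453% of all mRNAs were called higher and 0.445% lower. From D7 to D28, 14 were called higher and 0 lower, with a median of 1.79 against 0.46 for all mRNAs. The largest were CCL5, a chemokine of cytotoxic cells (3.49), GZMA, a granule protease (ENSSSCG00000016903, 3.41), TBX21, the transcription factor T-bet (3.31), and GNLY, the granule protein granulysin (2.96). Under median-of-ratios scaling 10 of the 24 were called higher, and 13 with the 10 highest mRNAs removed.

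CCL5 was at 10.2 and 11.2 FPKM at D7 and at 132.6 and 129.4 at D28, and at D180 it was at 81.4 and 66.0. TBX21 was at 0.833 and 0.978 FPKM at D7 and 18.0 and 17.6 at D28. These genes shared the peak at D28 or the rise to it with the 5 mRNAs, but not the rise from D0 to D7. A highest mean at D28 was found for 11 of the 24 genes, or 45.8%, against 2.6% of all mRNAs, and for 20 of 24 against 21.6% after median-of-ratios scaling.

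From D28 to D180, only TYROBP, a signalling adaptor, and SLAMF7, a receptor of lymphocytes, were called higher among the 24, and 0 were called lower, against 17.8% and 0.898% of all mRNAs. The list's median was -0.07 at that step. The summed FPKM of the list was 82.4 to 102.6 in the D7 libraries, 392.4 to 443.6 in those of D28 and 505.4 to 519.8 in those of D180. Its part in the levels of the 5 mRNAs was not tested.

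From D0 to D7 the interferon-stimulated genes were the only list with a gene called higher, but 6 lists had one with a pseudocount of 0.1, 2 under median-of-ratios scaling and 4 with the 10 highest mRNAs removed. Of 11 interferon-stimulated genes measured, 5 were called: MX1 (2.45) and MX2 (2.35), which block virus replication, OAS2 (2.12), which senses double-stranded RNA, IFIT2 (1.80) and IRF7 (1.75), a transcription factor of interferon genes. From D7 to D28 none of the 11 was called higher, and their median was -0.04. MX1 had means of 4.31 FPKM at D0, 28.0 at D7, 24.4 at D28 and 135.8 at D180, a course that joins the first step of the 5 mRNAs but not the second.

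Of 21 T cell genes measured, none was called from D0 to D7, and 4 were called higher from D7 to D28: CD8A, the co-receptor of cytotoxic T cells (3.04), CD3E (1.77) and CD3D (1.52), chains of the T cell receptor complex, and LCK, the kinase that signals from it (1.71). Under each of the other scalings 1 of the 21 was called, with a pseudocount of 0.1 it was 11, and with the fold limit on the ratio of mean FPKM 13. CD8A alone had its highest mean at D28, with 23.1 FPKM there against 1.91 at D7, whereas 15 of the 21 had it there after median-of-ratios scaling.

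Among the chemokine receptors and ligands, 4 of 13 were called higher from D7 to D28. They included CCL5, S1PR5 (3.21), which guides NK cells out of tissues, and CXCL10 (2.05), an interferon-induced chemokine, and each of these had its highest mean at D28. In the monocyte list CX3CR1, a chemokine receptor that NK and T cells also carry, rose by 4.14 while CD14, the co-receptor for lipopolysaccharide, fell by 1.79. In the neutrophil list S100A8, a calcium-binding protein, fell by 2.09, where 0.38% of all mRNAs were called lower, and CSF3R, the receptor for granulocyte colony-stimulating factor, fell by 1.77.

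Erythroid genes were of interest for the drop after D28. From D0 to D7, 1 of 13 was called lower, BPGM, a red cell enzyme of glycolysis (-1.77), and the list's median was -0.68. From D7 to D28 EPB42, a protein of the red cell membrane, rose by 1.69, and AHSP, a chaperone of alpha-globin, fell by 1.87. From D28 to D180, 7 of 13 were called lower, against 0.898% of all mRNAs, with a median of -1.64, and 11 of 13 under median-of-ratios scaling. They included EPB42 (-3.44), CA2 (-2.83) and CA1 (-2.36), which are carbonic anhydrases, and BPGM (-2.10).

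EPB42 had means of 49.7, 27.7, 91.7, 7.52 and 5.86 FPKM from D0 to Y2, and CA1 of 3.15, 6.34, 15.4, 2.16 and 8.72 FPKM. Together with KLF1, a transcription factor of red cell precursors, and CA2, these were the 4 erythroid genes with their highest mean at D28, and 1 of the 13 had it there after median-of-ratios scaling. CA1 had a higher mean at each age of the suckling period, with gains below the limit, a low mean at D180 and a higher one at Y2, as ENSSSCG00000003302 had. It was an exception in its list: no other erythroid gene measured rose from D0 to D7, where the list's median was -0.68. The summed FPKM of the erythroid list was 327831 to 352454 at D28 and 113631 to 136237 at D180, and its part in the drop of the 5 mRNAs was not tested.

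**Figure D5:**
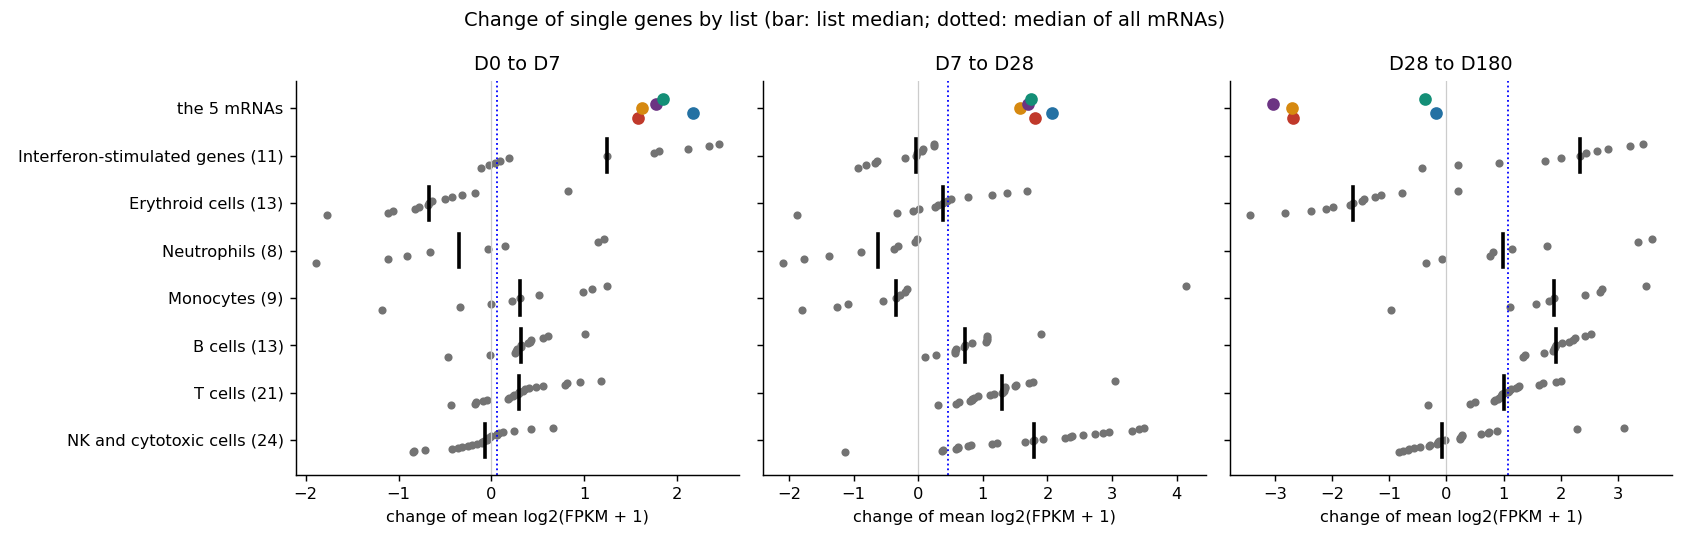
Change of mean log2(FPKM + 1) of single genes at 3 steps for 7 of the 16 lists (grey points, number measured in brackets, bar at the list's median) and for the 5 mRNAs (coloured points, colours as in the other plots), with a dotted line at the median of all mRNAs. From D7 to D28 the 5 mRNAs lie within the range of the NK and cytotoxic genes, whose median is 1.79. Genes of other lists, such as the T cell genes CD3E and LCK, also lie at such values. From D28 to D180, 3 of the 5 lie below the erythroid list's median of -1.64. ENSSSCG00000031037 (-0.18) and ENSSSCG00000039102 (-0.38) fell less than every erythroid gene measured but TFRC (0.21). These 2 also lie within the range of the NK and cytotoxic genes at that step.

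In the other lists few or no genes had their highest mean in FPKM at D28, as for 2.6% of all mRNAs, and nothing is read from these low counts. None of 13 B cell genes had its highest mean there, and 11 of them were called higher from D28 to D180. In the lists of plasma cells, gamma-delta T cells, neutrophils, platelets, dendritic cells and MHC class II, eosinophils and basophils, proliferation, interferon-stimulated genes, and complement and Fc receptors there was also none, while 1 of 9 monocyte genes and 1 of 3 killer-cell and leukocyte receptor genes had it there. Over all 172 genes, 20 had their highest mean at D28.

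The same rule was applied to the 5946 long non-coding RNAs (lncRNAs) of the deposited tables. Only 4 made both steps, and 3 of these had their highest mean at D28, as 397 lncRNAs did in all. All of them lie on unplaced scaffolds of the Sscrofa11.1 build. TCONS_00195442, on the plus strand of scaffold AEMK02000695.1 from 5033 to 6872, was listed at 0 in both D0 pigs and was at 1.65 and 2.60 FPKM at D7, 4.26 and 15.4 at D28, 5.89 and 4.26 at D180, and 2.28 and 0.0495 at Y2.

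The other 2 lie on the minus strand of scaffold AEMK02000489.1. TCONS_00193554, from 8238 to 12429, was at 6.13 and 5.60 FPKM at D0, 29.3 and 14.2 at D7, 164.5 and 31.5 at D28, 0.00677 and 8.90 at D180, and 8.03 and 32.6 at Y2. TCONS_00193537, from 49028 to 49354, was at 724.1 and 5.99 FPKM in the 2 pigs of D0 and at 661.2 and 3264 in those of D28. In TCONS_00195442 and TCONS_00193554 the D0, D7 and D28 libraries were apart, as in the 5 mRNAs, but the 2 pigs of D28 differed several-fold. Pig 1 of D28 did not exceed either D180 library (5.89 and 4.26 FPKM) in TCONS_00195442. In TCONS_00193554, pig 2 of D28, at 31.5 FPKM, was below pig 2 of Y2, at 32.6 FPKM. The peak of both at D28 is therefore uncertain. In TCONS_00193537 the ages overlapped.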

How the data were processed

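Whole-blood RNA of 10 female pigs was sequenced by the authors after ribosomal RNA had been removed. They aligned the reads to Sscrofa11.1 with HISAT2 2.0.4. The deposited mRNA table holds FPKM made by the authors with StringTie 1.3.3, for mRNAs above 0.5 FPKM in at least 1 library. The deposited lncRNA table holds FPKM of transcripts that the authors assembled with StringTie and merged and quantified with Cufflinks 2.2.1 programs. Versions are from the submitters' notes and the study's methods. All deposited columns were used, and reads per value are unknown.

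Groups are the ages in the labels, and replicate numbers are the labels' own. Log2(FPKM + 1) values of all 10 libraries were fitted with limma 3.58.1 in R 4.3.3, with 5 ages and a trend of the variance on the mean, and p-values were adjusted by Benjamini and Hochberg over 12354 mRNAs. The limits of the study made a call: adjusted p up to 0.05 with a log2 change of 1.5 or more. Intervals are 95% intervals of that fit. On simulated data 197 of 200 genes changed by 2 on the log2 scale were recovered for D180 against Y2 among 12354, with 0 false calls. The unchanged genes were simulated with a flat mean over all ages, without the median shift of -0.65 of the real data at that step. The count of false calls therefore says little about the real data. Recovery of differences as small as those of the 5 mRNAs between D180 and Y2, all below the limit of 1.5, was not tested. For the steps other than D180 to Y2, differences of the 5 mRNAs were described and not tested.

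The 5 mRNAs and the gene lists were chosen with earlier results of these data known. Named were the 5 mRNAs, the 3 most similar mRNAs of each under both scalings, the 3 nearest outside the rule, and from each list up to 4 called genes each way. Of these, 1 called list gene is not reported here. Genes given with levels, HBB and the lncRNAs that met the rule were named after their values were seen. LncRNAs within 100 kb of the 5 mRNAs were not analysed here, since no positions were at hand for them, and no sequence is shown for the same reason. Symbols came from a table of identifiers and symbols. Alternatives were a pseudocount of 0.1, median-of-ratios scaling (factors 0.437 to 3.03), removal of the 10 highest mRNAs, a filter of 1 FPKM in 2 libraries, a fit without the trend, a fit of only the ages compared, a replicate block, the fold limit on the ratio of mean FPKM, and leaving out each pig.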

Additional observations from a re-analysis of the deposited data

How the results depend on the processing

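All 5 mRNAs had their highest mean at D28 under every setting run. All 5 met the rule in FPKM, but 0 after median-of-ratios scaling and 1 with the 10 highest mRNAs removed. Between 4 and 5 met it without 1 pig: ENSSSCG00000032163 was lost without D0 pig 1 (first step 1.47) or D28 pig 2 (second step 1.44), and ENSSSCG00000003302 without D0 pig 2 (first step 1.41). The mRNAs lower at Y2 by adjusted p went from 3 to 0 with median-of-ratios scaling and to 1 with the 10 highest removed, and the cause was not tested. The 1 that was higher went to 0 to 1 without 1 pig. ENSSSCG00000036983 turned from -0.02 to 0.14 under median-of-ratios and 0.16 after the 10 highest were removed, and ranged from -0.11 to 0.065 without 1 pig (0.065 without Y2 pig 1). With a pseudocount of 0.1, or the fold limit on the ratio of means, 1 of the 5 (ENSSSCG00000032163) passed both limits instead of 0. Of 15 places of similar mRNAs, 6 were kept under median-of-ratios, 7 after the 10 highest were removed and 11 to 15 without 1 pig. NK and cytotoxic genes highest at D28 numbered 20 instead of 11 with median-of-ratios scaling.

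Counts of called mRNAs moved by more than 1.5 times as follows. With a pseudocount of 0.1, calls from D0 to D7 were 276 higher and 139 lower (56 and 55 in FPKM with a pseudocount of 1), from D7 to D28 1269 and 168 (249 and 47), from D28 to D180 5845 higher (2194), and from D180 to Y2 56 and 708 (13 and 154). With median-of-ratios scaling they were 116 lower, 58 and 225, 54 and 320 (2194 and 111), and 55 and 10, and with the 10 highest removed 122 and 32, 124 and 99, 267 and 218, and 47 and 25. With the fold limit on the ratio of means they were 362 and 164, 1922 and 223, 6534 and 176, and 73 and 967. Without 1 pig the ranges were 54 to 69 and 51 to 60, 230 to 294 and 46 to 52, 2085 to 2455 and 105 to 116, and 13 to 16 and 154 to 180.

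Pigs of different ages with the same number are different animals, since the study used 10 pigs at 5 ages. Their deviations correlated by only -0.0819 to 0.0775, which could not by itself show that no animal was shared. A replicate block left 3 of the 5 mRNAs lower and 1 higher at Y2 and 155 mRNAs called lower there, and changed no call on the 5. The alternatives for lncRNAs near the 5 mRNAs were not run. With 2 pigs per age and no counts, the differences of the 5 mRNAs between D180 and Y2 varied with the scaling or with single pigs.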

Other observations

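Beyond the axes of the plot of both suckling steps lay 2 mRNAs that swung between almost nothing and some of the highest levels in blood. ENSSSCG00000034995 had 112857 and 123713 FPKM in the D0 pigs and was listed at 0 and 0.0145 in the D7 pigs, then 150727 and 105994 in those of D28 and 71703 and 53773 in those of D180. Its Y2 pigs had 99987 and 0 FPKM. ENSSSCG00000038379 was at 34457 and 31600 FPKM in the D7 pigs and at 18587 in pig 2 of Y2, the libraries in which the other was at or near 0, and at most 0.163 FPKM in the remaining 7. Both are among the 10 highest mRNAs, which the rescaling without those leaves out. Whether reads were divided differently between such identifiers was not tested.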
